A study of Neurospora crassa with 8 samples.

Results

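The 6 genes examined here are conidiation and clock output genes of the filamentous fungus Neurospora crassa. They are fl (NCU08726), con-6 (NCU08769), con-8 (NCU09235), con-10 (NCU07325), eas, also named ccg-2 (NCU08457), and ccg-1 (NCU03753). They were picked out of the table by gene identifier and name, with earlier results of these data known, and all 6 were found among the 9730 genes of the deposited table of normalized read counts. All 6 were detected in every library and passed the filter on low values. The 4 libraries used are poly-A RNA from mycelium shaken for 16 hours at 32 °C in Vogels minimal medium with 1.5% sucrose. WT replicate 1 is strain N3752 (mat A) and WT replicate 2 strain N3753 (mat a), both wild type. The other group holds strains N7617 and N7680 (both mat a), labelled ∆pas, with the marker nat-1 at pas (NCU04278); these are called ∆pas replicates 1 and 2, and pairs of values below follow that order. The series names pas as an accessory subunit of PRC2, the complex that methylates lysine 27 of histone H3. The 4 ChIP samples of the series were not analysed here, and nothing in the sources used here gives the light regime or the time of day at harvest.

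Conidia are the asexual spores of Neurospora crassa. Aerial hyphae form them when a culture meets air or runs short of nutrients, and a submerged, shaken culture stays mostly hyphal. A circadian clock, built on the frequency protein and the White Collar light receptors, times conidiation in the day. Genes whose transcripts cycle under this clock were named clock-controlled genes (ccg), and several of them also rise during conidiation or after light. The set holds a regulator (fl), genes named for their transcripts in conidiating cultures (con-6, con-8, con-10), a spore coat protein (eas) and a clock-controlled gene that glucose represses (ccg-1).

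The depth was 7139105 to 14679872 reads in genes per library. Values are the authors' normalized read counts, in which 1 read was worth 0.784235 to 1.61391 normalized counts, so every member rests on at least 394 reads in each library. The pas transcript itself did not separate the groups, at 119 and 95.1 normalized counts for the WT strains and 43.1 and 98.1 for those labelled ∆pas, and the groups are therefore named by their labels. The mat labels were checked with ccg-4 (NCU02500), the pheromone precursor gene of mat A strains. WT replicate 1, labelled mat A, had 160 of its reads, and the 3 libraries labelled mat a had 3, 1 and 0. The labels name the tissue as germinated conidia, while the protocol describes mycelium. The 6 genes together took 0.214% and 0.401% of the gene reads of the WT strains, and 0.209% and 0.176% of those of the ∆pas strains. Reads of these genes were thus present in all 4 shaken cultures, and whether spores formed there was not tested. In bulk RNA, more cells of a type and more RNA per cell cannot be told apart. Counts were not corrected for transcript length, so levels are compared between libraries and not between genes.

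No member passed the threshold for a difference between the groups in the fit across all genes. With limma on log2(normalized count + 1) and an adjusted p under 0.05 (Benjamini-Hochberg over 8219 tested genes), 0 of the 6 were called, against 0.365% of all tested genes. At an unadjusted p under 0.05 there were 2 of the 6, con-6 and eas, against 21.3% of all tested genes. The edgeR test on the recovered reads also called 0 of the 6. DESeq2 on the same reads called 2, con-6 as higher and eas as lower in ∆pas. Of the 7263 genes with a DESeq2 adjusted p, 3.5% were called higher and 4.85% lower. The same 2 genes passed with limma when ∆pas replicate 1 was left out, where 6.3% of all tested genes were called higher and 7.12% lower. The groups did not overlap for 4 of the 6, of which 3 were higher and 1 lower in ∆pas, while 56% of all tested genes had groups that did not overlap, 29.5% higher and 26.5% lower. An exact permutation test over 2 strains a group has p = 0.333 as its smallest value, so none was run. The members' median log2 difference was 0.16, beside 0.03 over all tested genes.

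**Figure D1:**
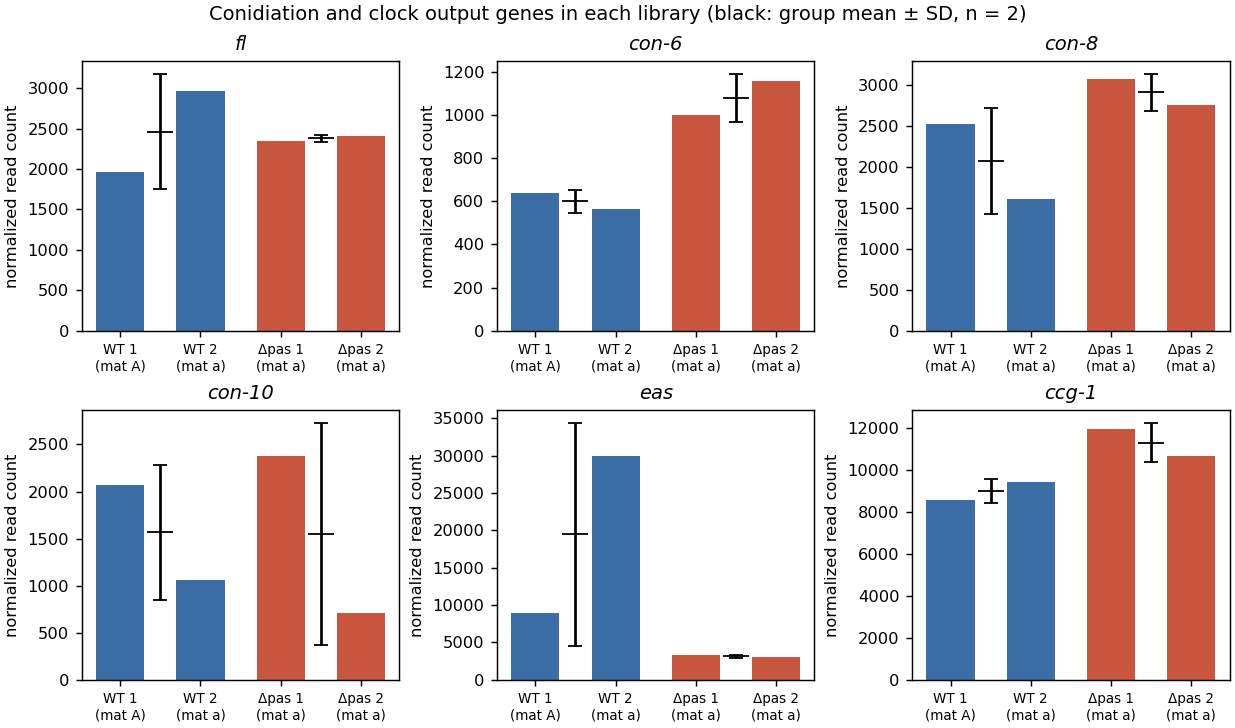
Normalized read counts of the 6 genes in each library. Bars are single libraries (blue WT, red labelled ∆pas), and the black marks are group means ± SD (n = 2). The bars of eas run from 2983 to 30017 and those of con-10 from 710 to 2382, whereas those of ccg-1 stay between 8584 and 11976.

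The regulator fl (fluffy) encodes a zinc cluster transcription factor needed for the formation of conidia. Its normalized count was 1961 and 2969 for the WT strains, and 2353 and 2413 for the ∆pas strains. Both ∆pas strains lay between the WT strains, which differed 1.51-fold from each other. The difference between the group means of log2(normalized count + 1), ∆pas minus WT and called the log2 difference below, was -0.02 ± 0.218 (SE; limma adjusted p = 0.973), with a 95% confidence interval from -0.55 to 0.51. This interval spans 0.685 to 1.42 times the WT level. The sign of this value turned without WT replicate 2, to 0.28 (limma adjusted p = 0.596).

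Among the con genes, con-6 had the most even replicates. It encodes a small protein that accumulates in conidia and fades after they germinate. The WT strains had 636 and 562 normalized counts, and the ∆pas strains 999 and 1157. Both ∆pas strains were above both WT strains, with little spread inside either group. The means were 599 ± 52.1 in WT and 1078 ± 112 in ∆pas (SD, n = 2 each). The log2 difference was 0.85 ± 0.169 (SE; 95% confidence interval 0.44 to 1.25), or 1.8-fold, and missed the threshold (limma adjusted p = 0.0797, 0.00209 before adjustment). DESeq2 on the recovered reads put it past the threshold (adjusted p = 0.00838), and so did limma without ∆pas replicate 1 (adjusted p = 0.021). Reads that fell outside annotated features made up 5.41% and 15.2% of all reads for the WT strains and 13.9% and 6.76% for the ∆pas strains. The con-6 difference was 0.86 for the single libraries with the lower shares and 0.83 for those with the higher ones. Its sign is fixed by groups that do not overlap. With the share as a covariate the limma adjusted p of con-6 was 0.16.

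Transcripts of con-8, another gene found through its expression during conidiation, were at 2527 and 1608 normalized counts in the WT strains. The ∆pas strains had 3066 and 2748. The ∆pas strains were again the higher ones, but WT replicate 1 stood closer to them than to WT replicate 2. The log2 difference was 0.53 ± 0.234 (SE; limma adjusted p = 0.261), with a 95% confidence interval from -0.04 to 1.09. It was 0.20 without WT replicate 2 and 0.85 without WT replicate 1 (limma adjusted p = 0.709 and 0.533). The WT gap of 1.57-fold exceeded that of 88.0% of all tested genes.

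The third, con-10, was the most uneven member among the strains labelled ∆pas. This gene encodes a small protein of conidia, and it is known to respond to light. The WT strains had normalized counts of 2072 and 1058, which are 1284 and 1024 reads. The ∆pas strains had 2382 and 710, which are 3037 and 826 reads. The highest and the lowest library were thus the pair labelled ∆pas, and the WT libraries fell between them. The ∆pas strains differed 3.35-fold, a gap larger than that of 98.4% of all tested genes, and the WT strains 1.96-fold, larger than for 94.8%. The 95% Poisson intervals, which cover counting error only, were 2298 to 2468 and 663 to 761 normalized counts in ∆pas replicates 1 and 2.

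Between the groups con-10 differed by less than between the strains within each group. Its log2 difference was -0.19 ± 0.578 (SE; limma adjusted p = 0.878), with a 95% confidence interval from -1.58 to 1.21. The sign turned to 0.30 without WT replicate 1 and to 0.69 without ∆pas replicate 2 (limma adjusted p = 0.917 and 0.387), and the value was -1.06 without ∆pas replicate 1 (0.0913). It was -1.54 for the single libraries with the lower share of reads outside features and 1.17 for the other pair.

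The largest range over the 4 libraries belonged to eas (easily wettable). It encodes the hydrophobin that coats conidia with a water-repellent layer of rodlets, and it is also known as a clock-controlled and light-induced gene. Normalized counts were 8931 and 30017 for the WT strains, and 3311 and 2983 for the ∆pas strains. The ∆pas strains were low and close together, while WT replicate 2 stood far above the other 3 libraries. The gap between the WT strains was 3.36-fold, larger than for 98.9% of all tested genes. The gap between the ∆pas strains was 1.11-fold, larger than for 29.7%. From the lowest to the highest library the range was 10.1-fold, wider than for 99.0% of tested genes.

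The means of eas were 19474 ± 14910 in WT and 3147 ± 232 in ∆pas (SD, n = 2 each). The log2 difference was -2.38 ± 0.512 (SE; 95% confidence interval -3.62 to -1.14), which is 0.192 times the WT level, and it missed the threshold (limma adjusted p = 0.0833, 0.00304 before adjustment). WT replicate 2 set much of the size: without it the log2 difference was -1.51 (limma adjusted p = 0.319), and without WT replicate 1, which leaves strains of mating type a alone, it was -3.26 (0.0838). DESeq2 on the recovered reads gave -2.65 (adjusted p = 0.0144), and limma without ∆pas replicate 1 gave -2.46 (adjusted p = 0.0366). The difference was -1.58 for the single libraries with the lower share of reads outside features and -3.18 for the other pair, with a sign that is fixed by groups that do not overlap; with the share as a covariate the limma adjusted p was 0.0562.

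The most even gene of the set was ccg-1, a clock-controlled gene also known to rise when glucose is short. The WT strains had 8584 and 9418 normalized counts, and the ∆pas strains 11976 and 10657. Both ∆pas strains were above both WT strains by a small margin. The log2 difference was 0.33 ± 0.154 (SE; limma adjusted p = 0.277), with a 95% confidence interval from -0.04 to 0.70. The whole range over 4 libraries was 1.4-fold, wider than for only 33.3% of tested genes.

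By strain, the spread was uneven over the set. Its median gap between the WT strains was 0.63 on the log2 scale, beside 0.21 over all tested genes, and between the ∆pas strains it was 0.16, beside 0.28. A gap of at least 2-fold was found for 1 of the 6 between the WT strains (eas), against 4.96% of all tested genes. Between the ∆pas strains it was also 1 of the 6 (con-10), against 7.49%. The 6 genes did not rise and fall together. WT replicate 2 was the highest library for fl and eas and the lowest for con-6 and con-8. The highest library was ∆pas replicate 1 for con-8, con-10 and ccg-1, and ∆pas replicate 2 for con-6.

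**Figure D2:**
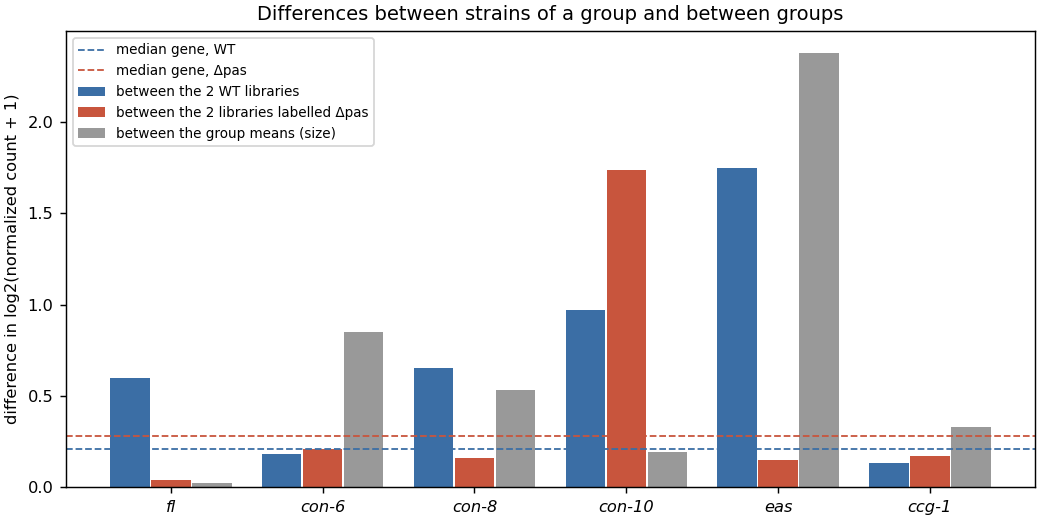
Size of the difference in log2(normalized count + 1) for each gene, between the 2 WT libraries (blue), between the 2 libraries labelled ∆pas (red) and between the group means (grey). Dashed lines mark the median gap of all tested genes, 0.21 in WT and 0.28 in ∆pas. The grey bar exceeds both coloured bars for con-6, eas and ccg-1.

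Likeness over the 4 libraries was measured as the root mean square difference of log2 values, each centred on its own mean. Within the set, ccg-1 and fl were nearest, at 0.25, followed by con-6 and con-8 at 0.27, and con-6 and eas were farthest apart, at 1.76. Across all tested genes, the nearest to fl were stk-18 (0.025) and NCU06980 (0.030), and the nearest to con-6 were NCU03398 and NCU04061 (0.032 each). The nearest to con-8 were NCU09755 (0.047) and NCU03422 (0.048), and to ccg-1 dim-7 (0.013) and NCU06271 (0.015). Many other genes were about as near: 303 lay within 0.1 of ccg-1 and 74 within 0.1 of fl.

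The uneven members had few such neighbours. Only 5 genes lay within 0.1 of con-10, and the nearest was NCU06911 (0.039), with 474 and 243 normalized counts for the WT strains and 516 and 164 for the ∆pas strains. The second was NCU00314 (0.082). No gene lay within 0.1 of eas. Its nearest was NCU09734 (0.296), with 158 and 507 for the WT strains and 93.3 and 55.9 for the ∆pas strains, and the next was NCU02251 (0.335).

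The genes that act above or beside these members were taken from lists of known names. None of the 14 conidiation regulators was called with limma or edgeR. At an unadjusted limma p under 0.05, 3 were higher and 4 lower in ∆pas, where 21.3% of all tested genes passed in either direction. DESeq2 called 1 higher and 3 lower, against 3.5% and 4.85% of genes with a DESeq2 adjusted p. Their median log2 difference was 0.03, as over all genes, and the groups did not overlap for 13 of the 14, against 56% of all tested genes.

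The lowest of these regulators in ∆pas was acon-3 (NCU07617), needed for an early step of conidiophore development. The WT strains had 75.9 and 140 normalized counts, and the ∆pas strains 33.7 and 22.4. The log2 difference was -1.87 ± 0.401 (SE; limma adjusted p = 0.0833). The Myb-type factor gene rca-1 (NCU01312) counted 1477 and 2000 for the WT strains and 921 and 672 for the ∆pas strains, with a log2 difference of -1.13 ± 0.229 (SE; limma adjusted p = 0.0804). Both genes shared with eas the order of the libraries, in which WT replicate 2 was highest, then WT replicate 1, ∆pas replicate 1 and ∆pas replicate 2. The WT strains both lay above the ∆pas strains for 26.5% of all tested genes, and the share with this exact order was not counted. Since acon-3 and rca-1 were named for the size of their change, the shared order was seen afterwards. For eas the order of the ∆pas strains rests on a gap of only 1.11-fold. No link between these genes was tested. DESeq2 called acon-3 and rca-1 as lower. It also called acon-2 as lower, a gene likewise needed early in conidiophore formation, and csp-1 as higher, which encodes a repressor under clock control; these 2 are named after their values were seen. Their limma adjusted p-values were 0.0958 and 0.117.

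Genes with a con-, ccg-, acon- or csp- name in the reference numbered 16 beside the members. With limma 0 of the 16 were called, against 0.365% of all tested genes, with 3 higher and 3 lower at an unadjusted p under 0.05, against 21.3%. On the recovered reads edgeR called 0. DESeq2 called 2 higher (csp-1 and ccg-14) and 2 lower (acon-2 and acon-3), against 3.5% and 4.85% of genes with a DESeq2 adjusted p. The genes acon-2, acon-3, csp-1 and csp-2 are also among the regulators above, so only the ccg-14 call is new here. Their median log2 difference was -0.20, with 7 above 0 and 9 below. The 2 with the largest change were acon-3 and ccg-4, and the latter had reads almost only in the mat A strain, so no fold is given. A list of 6 clock-controlled genes was also drawn up by identifier, and all of them but NCU05429 are among the 16 as well. The reference gives no symbol for NCU05429, and its place in the list is uncertain. Of these 6, 0 were called by limma or edgeR. At an unadjusted limma p under 0.05, 3 were higher (gpd-1, NCU05429 and ccg-14) and 1 lower (ccg-4), against 21.3% of all tested genes. The gene ccg-4 is also among the 3 lower and the 9 below 0 of the 16. These counts thus hold a gene whose reads came almost only from 1 WT library, the mat A strain. DESeq2 called 1 as higher, ccg-14, which is the call already given. The count of ccg-14 (NCU07787), the gene of a small secreted protein, was 64292 and 50681 in WT and 130828 and 81305 in ∆pas (log2 difference 0.85 ± 0.273 (SE), limma adjusted p = 0.156).

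Other genes of this group also differed between the ∆pas strains. Of the 16, 12 (75%) were higher in ∆pas replicate 1, against 52.7% of all tested genes, and csp-1, gpd-1, ccg-8 and acon-2 were higher in ∆pas replicate 2. The 12 include ccg-4, with 1 and 0 reads in ∆pas replicates 1 and 2. They also include near-even genes such as cmt, at 7526 and 7218 normalized counts. Of the 16, 4 differed at least 2-fold between the ∆pas strains, against 7.49% of all tested genes, and all 4 were higher in ∆pas replicate 1, as were 64.6% of the 616 genes with such a gap. They are named here after their values were seen. One was con-13 (NCU07324), the next gene to con-10 on its chromosome in the RefSeq NC12 annotation, with 30 reads in ∆pas replicate 1 and 3 in ∆pas replicate 2, a count at the floor. The others were ccg-13 (55936 and 21997 normalized counts), acu-6, also named con-3 (2616 and 1024), and ccg-9 (4986 and 2457).

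**Figure D3:**
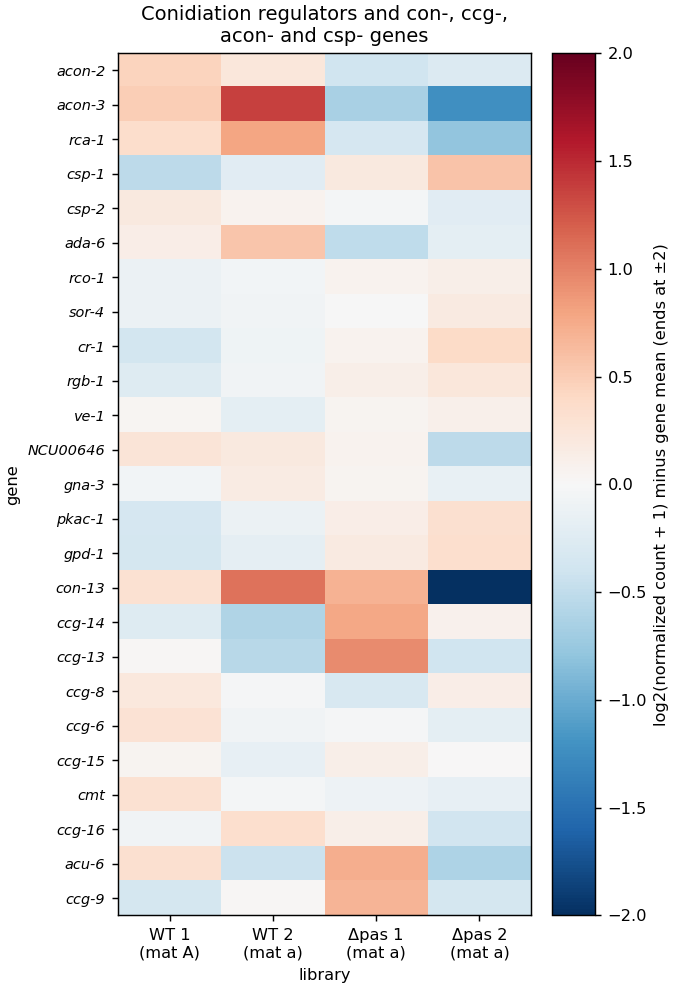
Centred log2(normalized count + 1) of conidiation regulators and of con-, ccg-, acon- and csp- genes (rows) in the 4 libraries (columns); red is above and blue below the gene's own mean, and ccg-4 is left out. The rows of acon-3 and rca-1 are red in both WT libraries and blue in both libraries labelled ∆pas, and those of ccg-13, acu-6 and ccg-9 are reddest in ∆pas replicate 1.

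The clock and light genes were examined as the input to the clock-controlled members. Of 5 genes, limma and edgeR called 0, with 2 higher and 1 lower at an unadjusted limma p under 0.05 (21.3% of all tested genes). DESeq2 called 1, vvd, as higher (3.5% of genes with a DESeq2 adjusted p). The groups did not overlap for any of the 5, against 56% of all tested genes. The median log2 difference was 0.31, with 4 above 0 (frq, wc-1, wc-2 and vvd) and 1 below (frh). The gene of the blue-light receptor VIVID, vvd (NCU03967), counted 11497 and 10953 for the WT strains and 17070 and 17616 for the ∆pas strains. Its log2 difference was 0.63 ± 0.146 (SE; limma adjusted p = 0.0932). The helicase gene frh (NCU03363), whose product binds the frequency protein, was at 970 and 867 in WT and 743 and 480 in ∆pas (log2 difference -0.62 ± 0.237 (SE), limma adjusted p = 0.208).

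Markers of other cell states were set beside these values. The 3 hyphal and housekeeping genes (hex-1, act and Bml) summed to 90976 to 93311 normalized counts in WT and 52582 to 70475 in ∆pas. None was called by limma or edgeR, each of which called 0.365% of all tested genes. At an unadjusted limma p under 0.05, 1 was lower, where 21.3% of all tested genes passed in either direction. DESeq2 called hex-1, the gene of the Woronin body protein that plugs hyphal pores, as lower, against 4.85% of genes with a DESeq2 adjusted p. Its normalized counts were 67556 and 63600 for the WT strains and 46756 and 33473 for the ∆pas strains (log2 difference -0.73 ± 0.211 (SE), limma adjusted p = 0.135), and act had a log2 difference of -0.36 ± 0.166 (SE; limma adjusted p = 0.274). The 3 genes of sexual development summed to 4833 to 5739 in WT and 5237 to 6515 in ∆pas, and none was called by limma, edgeR or DESeq2 or had an unadjusted limma p under 0.05. The largest change there was in fmf-1, at 0.53 ± 0.294 (SE; limma adjusted p = 0.342), followed by asd-1 at 0.25 ± 0.264 (SE; limma adjusted p = 0.608). The part of these cell states in the members' values was not tested.

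The authors' own comparisons were read for the same 6 genes, with the sign turned so that positive means higher in the mutant. These values are the authors' log2 fold changes and not the log2 difference defined above. The sources used here do not say how they were fitted, so their sizes are not like for like with the limma values. The 2 tables hold the same mean count for each of the 9730 genes, so both rest on the same libraries, WT included, and libraries other than these 4 entered them. For con-8 the mean count in the authors' deposited table was 9982, while the mean of the 4 libraries used here was 2488. In the authors' deposited table of ∆pas against WT, 0 of the 6 had an adjusted p under 0.05, against 1.19% of all genes with an adjusted p there.

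The direction of con-8 and ccg-1 differed between that table and the 4 libraries. In the authors' deposited table of ∆pas, con-8 had a log2 difference of -1.25 ± 0.577 (SE; adjusted p = 0.398) and ccg-1 one of -0.51 ± 0.478 (SE; adjusted p = 0.775). The limma values from the 4 libraries were 0.53 and 0.33, as above. The sign of fl also differed, at 0.43 ± 0.505 (SE; adjusted p = 0.824) in the authors' deposited table. For con-6 the authors' deposited table gave 0.97 ± 0.575 (SE; adjusted p = 0.561), for eas -1.10 ± 0.574 (SE; adjusted p = 0.491) and for con-10 -0.03 ± 0.472 (SE; adjusted p = 0.989), all with the sign seen here. The deposited table of counts has 2 further columns named WT that belong to no sample of this series, so the directions found here rest on 2 of its 4 WT columns. No test was made of the difference between the sources.

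For ∆set-7, which lacks the catalytic subunit of PRC2, no library was analysed here. The authors' deposited table of ∆set-7 gave all 6 genes a log2 fold change below 0, and the share of all genes below 0 there was not counted. It called 1 of the 6, con-10, as lower, against 3% of genes called lower there. The value of con-10 was -2.09 ± 0.473 (SE; adjusted p = 0.000649). For eas the authors' deposited table gave -1.64 ± 0.574 (SE; adjusted p = 0.0674), and for fl -0.94 ± 0.506 (SE; adjusted p = 0.303). The other 3 ran from -0.93 for con-8 to -0.36 for ccg-1 in the authors' deposited table, with adjusted p-values from 0.392 to 0.746. The gene called there, con-10, is the one that differed 3.35-fold between the strains labelled ∆pas. Its spread between ∆set-7 strains was not examined, and no link between that gap and the call was tested.

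**Figure D4:**
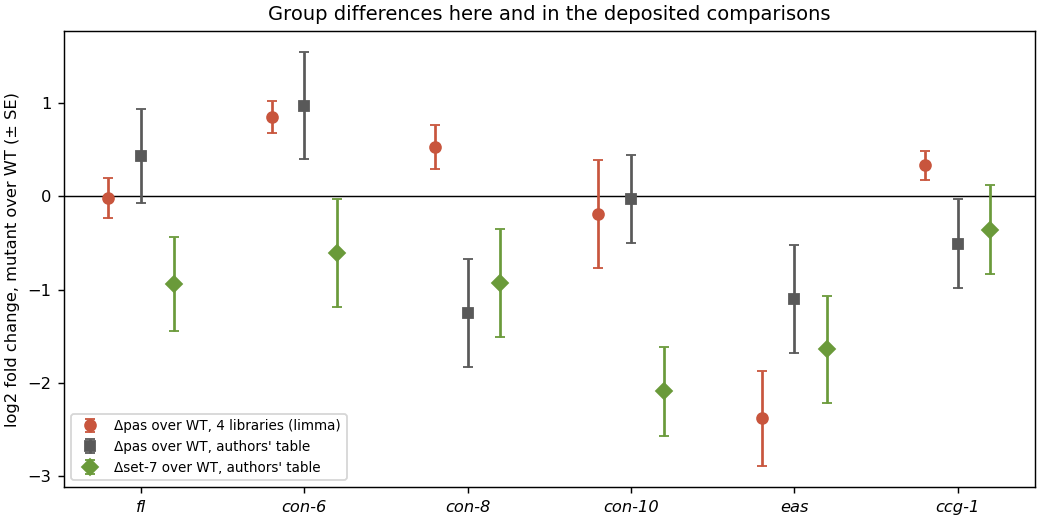
Mutant over WT (± SE) for the 6 genes. Circles are the log2 difference from limma on the 4 libraries. Squares (∆pas) and diamonds (∆set-7) are the log2 fold changes of the authors' deposited tables. For con-8 the circle lies at 0.53 and the square at -1.25, and for con-10 the diamond lies at -2.09.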

How the data were processed

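Normalized read counts (a signal in which the authors divided reads by 1 factor per library) were taken from the deposited table for the 4 RNA libraries; its 4 further columns (2 named WT and 2 named set7) match none of the series' samples and were not used. Per the submitters' processing notes the tools were Bowtie2, DESeq2 and deepTools, without roles; the build, the annotation and whether counting used strand are not given in the sources used here, so genes that overlap or have near-identical copies are uncertain. In each library 100% of gene values were whole multiples of 1 step (tolerance 0.01 read), which gave back the reads. The 4 summary entries of the read counter, 12.1% to 22% of reads, were left out. The test took the 8219 genes whose mean reached 5 normalized counts (1511 were left out), on the scale log2(normalized count + 1), in limma 3.58.1 (R 4.3.3) with an intensity trend, 2 residual and 4.34 prior degrees of freedom. The limma fold changes are on that scale. Alternatives used edgeR 4.0.16 and DESeq2 1.42.0 on the recovered reads. All tests were two-sided. The main limma fit, edgeR and DESeq2 were tried on simulated reads that gave every gene the same variability between replicates. The other alternatives were not tried on simulated reads. Poisson intervals (95%) cover counting error only, since no molecular identifiers were used. The p-values set group differences against the spread between 2 strains a group, each 1 library. In limma part of that spread is estimated from all genes. The WT strains differ in mating type and the ∆pas strains do not, so mating type and strain cannot be told apart within WT.

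The tables of comparisons hold, per the file headers, the authors' mean count and log2 fold change, the SE, the Wald score, and the raw and adjusted p-value. The deposited log2 values are WT over mutant and their sign was turned. In the authors' values set-7 itself then reads -3.51 in ∆set-7, and pas itself -0.77 in ∆pas (authors' adjusted p = 0.4). Symbols came from the RefSeq table of assembly NC12, used for names and neighbours only, and 42 of 44 listed identifiers had one. The members and lists were chosen with earlier results of these data known. Named genes were the 6 members, called list genes or otherwise the 2 with the largest change per list, and the 2 genes most like each member.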

Additional observations from a re-analysis of the deposited data

How the results depend on the processing

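Across 14 alternatives the 6 genes gave 84 log2 differences, of which 77 kept their direction and their side of the threshold, 3 turned sign and 4 passed the threshold. DESeq2 on the recovered reads moved the number of members called from 0 to 2, with con-6 at 0.83 and eas at -2.65; the cause was not tested. With 1 library left out the number called ran from 0 to 2. The log2 differences then ran from -0.32 to 0.28 for fl, from 0.74 to 0.95 for con-6, from 0.20 to 0.85 for con-8, from -1.06 to 0.69 for con-10, from -3.26 to -1.51 for eas and from 0.25 to 0.41 for ccg-1. In those fits the lone library of a group is assumed to vary like the other group. Leaving out ∆pas replicate 1 raised the calls over all genes from 30 to 1103 (518 higher and 585 lower, 13.4% of tested genes), and without either WT library limma called 0. The calls over all genes were 254 higher and 352 lower with DESeq2, 7 and 0 without a trend, 12 and 1 with the share of reads outside features as a covariate, 15 and 3 with no filter, and 16 and 3 with quantile scaling, against 23 and 7. TMM scaling, edgeR, other pseudocounts and a filter at a mean of 20 changed no call of a member.

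No paired analysis was possible because the labels give strain names and no replicate numbers that pair a WT strain with a mutant one. The lowest count of a member in any library was 394 reads.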
